A study of Mus musculus with 10 samples.

Results

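The sialic acid genes described here were read in the uteri of 10 female FVB/N mice, each 4 months of age, and comprise 10 gene names: Cmah, Gne, Nans, Cmas, St3gal1, St3gal4, St3gal6, St6gal1, St6galnac2 and Neu1. They were matched by exact gene name in a table of 29268 gene entries and gave 11 entries, because St6galnac2 has a second, nested entry. The 5 HSD17B1TG mice carry a human HSD17B1 cDNA, which encodes an estrogen-activating 17-beta-hydroxysteroid dehydrogenase, under a CMV-enhanced chicken beta actin promoter active throughout the body, in a line kept heterozygous. The 5 WT mice lack the transgene. Each library held the RNA of 1 uterus, so epithelium, stroma, muscle and leucocytes were measured together. By the study's methods, HSD17B1TG females do not cycle, while WT uteri were taken for histology at random cycle phases, so genotype and cycle state cannot be told apart. The transgene is human, so reads on the mouse Hsd17b1 gene do not check the genotype labels.

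The genes were chosen with results of this same comparison known, so their values and calls are given as a description. The calls come from the contrast that selected the genes and are not an independent test of it. Mice are called TG1 to TG5 or WT1 to WT5, numbered by rising animal number. Library totals were 16544864 to 19451715 counts in HSD17B1TG and 14817228 to 23271988 in WT. The share of counts on mitochondrial genes was 1.94% to 7.57% in HSD17B1TG and 2.58% to 3.37% in WT. Of the 4 uterine marker genes, 2 were called lower in HSD17B1TG, Hoxa10 (mean 30.4 FPKM against 133 in WT) and Hoxa11 (16.95 against 86.6). Pgr (29.8 against 48.2) and Esr1 (33.9 against 34.9) were not called, and none of the 4 was absent from any uterus.

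Sialic acids are acidic sugars that cap the outer ends of glycans on secreted and cell surface proteins and lipids, including the mucins of the uterine lining. Gne and Nans make the phosphorylated sugar from an amino sugar precursor, and Cmas activates the free sugar by joining it to CMP. Cmah adds a hydroxyl group to the activated N-acetyl form to give the N-glycolyl form, a step that humans have lost. The St3gal and St6 enzymes are Golgi sialyltransferases that place the activated sugar on galactose or N-acetylgalactosamine in different linkages. Neu1 is the lysosomal sialidase that takes it off again.

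The data bear on transcript levels of these genes, so the sequence just before the annotated transcription start is shown for the 3 of the 4 members past the call thresholds that had a window in the RefSeq promoter table (build GRCm38.p6), each 250 bases long and read 5′ to 3′ on the strand of the gene. Cmah had 2 annotated starts, with windows at chr13:24327154-24327403 and chr13:24414872-24415121 on the plus strand. The windows of Neu1 (chr17:34931003-34931252, plus strand) and St3gal4 (chr9:35116865-35117114, minus strand) follow. Capitals mark matches, on either strand, to 5 short motifs. These were GGTCA, the core of an estrogen response element, then GGGCGG, known as the GC box, then TGANTCA, bound by AP-1 factors, then TATAAA, found near some starts, and lastly the CCAAT box.
Cmah, first start: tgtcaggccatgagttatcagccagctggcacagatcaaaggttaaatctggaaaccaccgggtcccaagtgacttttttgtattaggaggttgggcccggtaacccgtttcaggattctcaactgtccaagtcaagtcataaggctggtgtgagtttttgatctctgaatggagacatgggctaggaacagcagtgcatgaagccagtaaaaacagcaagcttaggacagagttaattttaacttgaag
Cmah, second start: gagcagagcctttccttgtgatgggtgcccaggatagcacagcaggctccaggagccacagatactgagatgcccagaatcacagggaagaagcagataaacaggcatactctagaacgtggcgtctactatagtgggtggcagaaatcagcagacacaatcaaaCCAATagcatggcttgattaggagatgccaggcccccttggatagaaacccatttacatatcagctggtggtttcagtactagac
Neu1: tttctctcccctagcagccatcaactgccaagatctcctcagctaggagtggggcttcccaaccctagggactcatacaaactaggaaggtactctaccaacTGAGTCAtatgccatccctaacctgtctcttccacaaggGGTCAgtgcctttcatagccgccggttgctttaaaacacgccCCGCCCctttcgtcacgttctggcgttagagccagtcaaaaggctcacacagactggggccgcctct
St3gal4: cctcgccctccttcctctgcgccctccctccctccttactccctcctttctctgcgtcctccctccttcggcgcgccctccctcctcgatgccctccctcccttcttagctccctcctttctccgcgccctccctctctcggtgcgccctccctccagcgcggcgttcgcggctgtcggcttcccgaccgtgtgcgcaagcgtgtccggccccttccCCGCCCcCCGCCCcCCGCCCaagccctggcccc

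The first Cmah window held none of the 5 motifs, and the second held 1 CCAAT box, 85 bases before the start. The Neu1 window held 1 each of the estrogen element core, the GC box and AP-1. The St3gal4 window held 3 GC boxes within 33 bases of the start and had a GC content of 72.8%, against a median of 52.4% over all 32851 windows of the table. Over all windows, 35.2% held the estrogen element core, 32.7% the GC box, 6.75% AP-1, 12.4% TATAAA and 33.9% the CCAAT box. Of the 12 windows of the 7 members that had one (Cmah, Gne, Cmas, St3gal4, St3gal6, St6gal1 and Neu1), 5 held the estrogen element core, 3 the GC box, 2 AP-1, 0 TATAAA and 5 the CCAAT box. Such short matches occur in many promoters and do not show a site in use.

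All 11 entries passed the low count filter, and 4 of them passed the call thresholds (adjusted p under 0.05 by edgeR's quasi-likelihood test over 16993 genes, fold change over 2 and mean FPKM over 1 in either group). Cmah, St6galnac2 and Neu1 were called higher in HSD17B1TG, and St3gal4 was called lower. Of all genes tested, 2.16% were called higher and 2.08% lower. The members were selected on this contrast, and so these shares stand beside the count only for reference. The log2 fold change was positive for 7 entries and negative for 4, with a median of 0.53, and the median over all genes tested was 0.00 (5th to 95th percentile -1.22 to 1.46). Of all genes, 367 were called higher and 354 lower, and with library totals in place of TMM as the scale these became 286 and 494, with a median log2 fold change of -0.17. The FPKM ranges of the groups did not overlap for Cmah, which lay higher in HSD17B1TG, and for St3gal4, which lay lower. Among all genes tested, 4.04% had every HSD17B1TG mouse above every WT mouse and 2.65% had every one below.

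**Figure D1:**
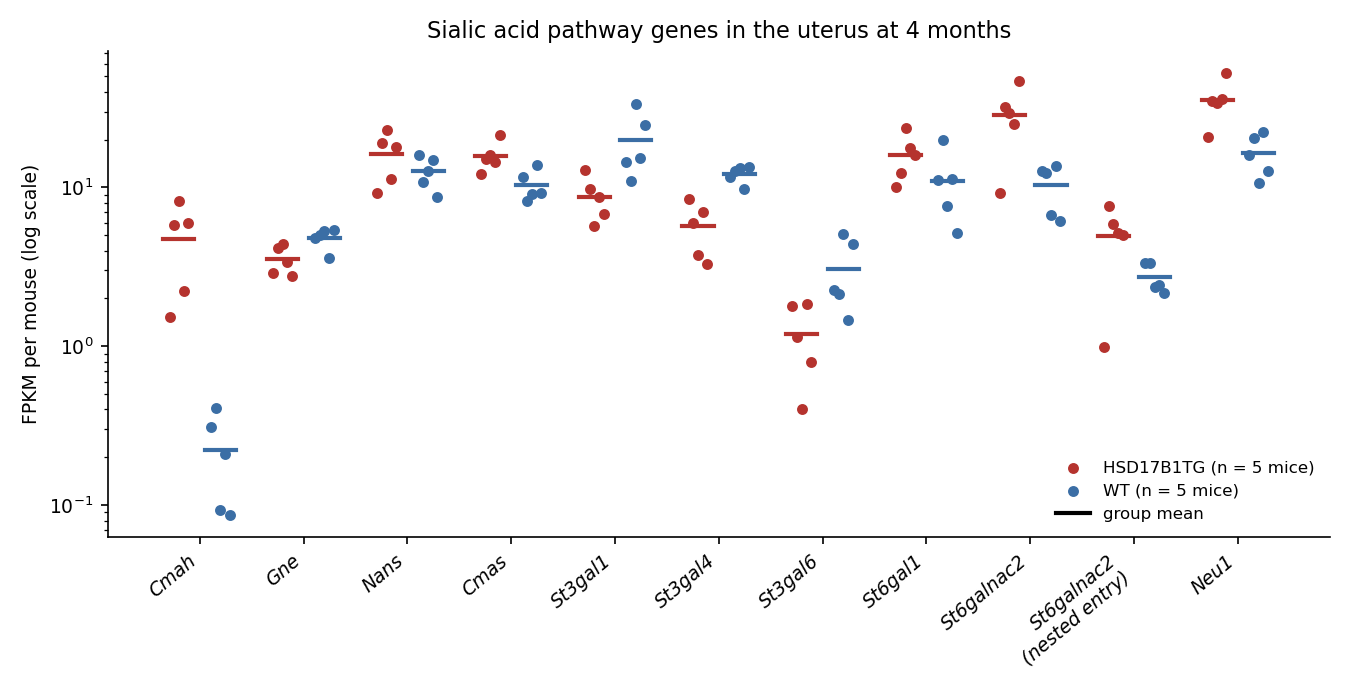
FPKM (log scale) of the 11 entries in each mouse, with HSD17B1TG in red, WT in blue and group means as bars. Cmah is the member with the widest gap between groups, 1.53 to 8.16 against 0.087 to 0.41, and the other members differ by less than a factor of 3 in their means.

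Cmah encodes the hydroxylase that turns CMP-N-acetylneuraminic acid into CMP-N-glycolylneuraminic acid (chromosome 13, 24327404 to 24477377, plus strand). In HSD17B1TG its level was 1.53, 5.81, 8.16, 2.22 and 5.96 FPKM in TG1 to TG5. In WT it was 0.309, 0.41, 0.0931, 0.209 and 0.087 FPKM in WT1 to WT5. The lowest transgenic uterus, TG1, was thus above the highest WT uterus, WT2, and the WT values rested on 16 to 83 reads each against 305 to 1637 in HSD17B1TG. The group means were 4.74 ± 2.78 and 0.222 ± 0.14 FPKM (SD, n = 5), and the fitted log2 fold change was 4.40 ± 0.60 (SE), a 21.1-fold difference. This was the 60th largest absolute log2 fold change of the 16993 genes. It stayed between 4.10 and 4.72 when each mouse in turn was left out, and Cmah was called each time, as it was in 8 further fits with another test, scaling or filter. The antisense gene and the pseudogene annotated within the Cmah span share no exon bases with it.

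The enzymes before the hydroxylase differed less. Gne, which encodes the first and rate-limiting enzyme of sialic acid synthesis, had 2.89, 4.18, 4.397, 3.40 and 2.77 FPKM in TG1 to TG5 and 4.84, 5.02, 5.32, 3.59 and 5.42 in WT1 to WT5. Of the transgenic uteri, 3 lay under the lowest WT value, and the log2 fold change was -0.46 ± 0.18 (SE), not called. Nans, the synthase that forms the phosphorylated sugar, ranged from 9.25 to 23.1 FPKM in HSD17B1TG and from 8.72 to 15.98 in WT, with a log2 fold change of 0.35 ± 0.26. Its exons share 1356 bases with Trim14 on the other strand, so without strand information the reads of the 2 genes cannot be told apart there.

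Cmas, the CMP-sialic acid synthetase, had 12.2, 15.1, 15.9, 14.5 and 21.4 FPKM in TG1 to TG5 and 11.6, 8.15, 9.04, 13.8 and 9.27 in WT1 to WT5. Every transgenic uterus but TG1 lay above every WT uterus, and TG1 fell within the WT range. The log2 fold change was 0.61 ± 0.18 (SE), not called. Cmah therefore stood at 0.126 to 0.514 of the Cmas level in HSD17B1TG and at 0.00940 to 0.0503 in WT, a ratio of FPKM values within each mouse that did not overlap between the groups.

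The 3 St3gal members, which add sialic acid in alpha-2,3 linkage to galactose, all had lower means in HSD17B1TG. St3gal4, which acts mainly on N-glycan ends, had 8.41, 5.96, 3.76, 6.98 and 3.30 FPKM in TG1 to TG5 and 11.7, 12.7, 13.3, 9.71 and 13.3 in WT1 to WT5. Every transgenic uterus was under every WT uterus. The means were 5.68 ± 2.15 and 12.2 ± 1.53 FPKM (SD, n = 5), with a log2 fold change of -1.10 ± 0.26 (SE). St3gal4 shares 412 exon bases with a noncoding gene on the other strand, 4930581F22Rik.

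St3gal1, which sialylates core 1 O-glycans, had 12.8, 9.72, 5.71, 8.73 and 6.79 FPKM in TG1 to TG5 and 14.4, 10.96, 33.5, 15.4 and 24.8 in WT1 to WT5. The groups overlapped at TG1 and WT2, and WT3 and WT5 were well above the other 3 WT mice. Its log2 fold change of -1.18 ± 0.33 was not called by edgeR and was called by DESeq2 and with library totals as the scale. St3gal6, another enzyme of N-glycan and glycolipid ends, was the lowest of these, at 0.405 to 1.85 FPKM in HSD17B1TG and 1.47 to 5.08 in WT, with a log2 fold change of -1.37 ± 0.47 that was called by DESeq2 alone. WT3 and WT5 again held its 2 highest values, 5.08 and 4.43. St3gal6 shares 1603 exon bases with Dcbld2 on the other strand. The sum of these 3 St3gal levels was 9.88 to 23.03 FPKM in HSD17B1TG and 25.8 to 51.9 in WT, which did not overlap. It holds the selected members only and leaves out the other alpha-2,3 enzymes of the wider list described below. Of those, 1 had a positive log2 fold change and 2 a negative one, and St3gal5 reached 24.2 FPKM in TG1. The sum therefore does not stand for all alpha-2,3 enzymes.

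Both alpha-2,6 members had higher means in HSD17B1TG. St6galnac2, which adds sialic acid to the N-acetylgalactosamine of O-glycans, had 9.26, 32.2, 29.4, 25.2 and 46.7 FPKM in TG1 to TG5 and 12.7, 12.4, 6.66, 13.6 and 6.17 in WT1 to WT5. TG1 fell within the WT range and the other 4 transgenic uteri lay above it. The log2 fold change was 1.47 ± 0.39 (SE). The nested entry lies within the main one on the same strand (chromosome 11, 116677483 to 116681290), shares 383 of its 1683 exon bases with it, and had 0.988 to 7.65 FPKM in HSD17B1TG and 2.18 to 3.35 in WT, so how reads were divided between the 2 entries is uncertain. The main entry also shares 497 exon bases with 1810032O08Rik on the other strand.

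St6gal1, the main alpha-2,6 enzyme of N-glycans, had 10.1, 12.4, 23.6, 17.8 and 16.1 FPKM in TG1 to TG5 and 11.1, 19.9, 7.67, 11.3 and 5.16 in WT1 to WT5. The groups overlapped broadly and the log2 fold change was 0.53 ± 0.34 (SE), not called. St6gal1 shares 200 exon bases with BC106179 on the other strand.

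Neu1 had 20.9, 35.2, 34.0, 36.0 and 52.6 FPKM in TG1 to TG5 and 16.03, 20.5, 10.6, 22.4 and 12.7 in WT1 to WT5. TG1 lay between WT2 and WT4, and the other 4 transgenic uteri were above all WT mice. The means were 35.7 ± 11.3 and 16.4 ± 4.99 FPKM (SD, n = 5), with a log2 fold change of 1.12 ± 0.27 (SE). Neu1 was the highest of the members in the HSD17B1TG mean. Its ratio to the summed FPKM of the 5 sialyltransferase members was 0.493 to 0.715 there and 0.160 to 0.435 in WT, again without overlap. Both parts of this ratio are members selected on this contrast. Other sialyltransferases expressed in these uteri are left out, so the ratio does not stand for sialyltransferases in general.

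The calls of the other 3 called members depended on single mice, while their direction did not. Leaving out 1 mouse at a time, St3gal4 and Neu1 were each called in 3 of 10 fits and lost the call without TG2, TG4, TG5, WT1, WT2, WT3 or WT5. St6galnac2 was called in 2 of them and lost it also without TG3. The log2 fold change stayed between -1.28 and -0.96 for St3gal4, 0.94 and 1.26 for Neu1, and 1.22 and 1.69 for St6galnac2 over these fits. Of the 8 fits with another test, scaling or filter, St3gal4 was called in 8, Neu1 in 7 (not with library totals) and St6galnac2 in DESeq2 alone. Across all genes, the number called higher also dropped from 367 to 38 without TG5 and to 38 without WT2.

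**Figure D2:**
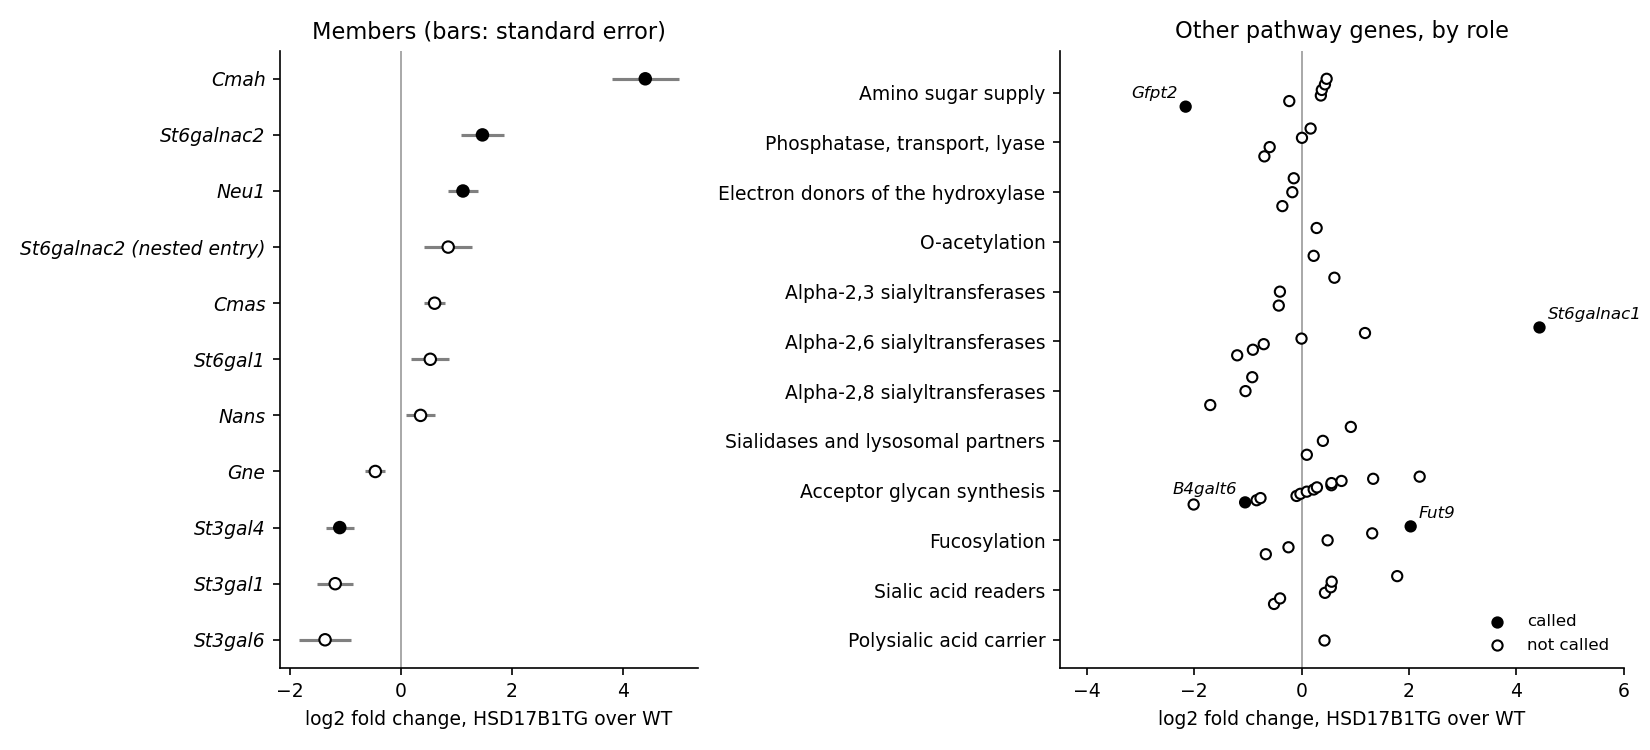
Log2 fold change of HSD17B1TG over WT for the 11 entries of the members, with standard errors (left), and for the 56 tested genes of the wider pathway, grouped by role (right). Filled points were called, and Cmah at 4.40 and St6galnac1 at 4.43 stand farthest to the right.

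The order of the members by FPKM differed between the groups. In WT the highest mean was that of St3gal1 (19.8 FPKM), followed by Neu1 (16.4), Nans (12.6), St3gal4 (12.2), St6gal1 (11.02), Cmas (10.4) and St6galnac2 (10.3). The ranges of each neighbouring pair among these overlapped. Gne (4.84) came next and lay below St6galnac2 in all 5 WT mice without overlap, then St3gal6 (3.07) and the nested entry (2.73), and Cmah (0.222) was last, below the nested entry in every WT mouse. In HSD17B1TG the order was Neu1 (35.7), St6galnac2 (28.5), Nans (16.2), St6gal1 (15.98), Cmas (15.8), St3gal1 (8.76) and St3gal4 (5.68), followed by the nested entry (4.94), Cmah (4.74), Gne (3.53) and St3gal6 (1.19). Among these neighbours, the ranges of Gne and St3gal6 alone did not overlap.

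Within each uterus the make-up of the 5 sialyltransferase members differed between the groups more than their sum did. The summed level was 60.2 ± 11.3 FPKM in HSD17B1TG and 56.4 ± 6.1 in WT (SD, n = 5). The 3 St3gal genes made up 54.4%, 27.4%, 15.7%, 29.0% and 14.8% of it in TG1 to TG5 and 54.4%, 44.4%, 78.4%, 51.5% and 79.0% in WT1 to WT5. TG1 was thus level with WT1, and the other 4 transgenic uteri lay below all WT mice. St6galnac2 made up 21.9% to 63.4% in HSD17B1TG and 10.1% to 26.5% in WT, and St6gal1 20.2% to 37.5% and 9.57% to 34.3%. Within the St3gal sum, the share of St3gal1 was 56.7% ± 4.6 and 54.8% ± 8.4.

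**Figure D3:**
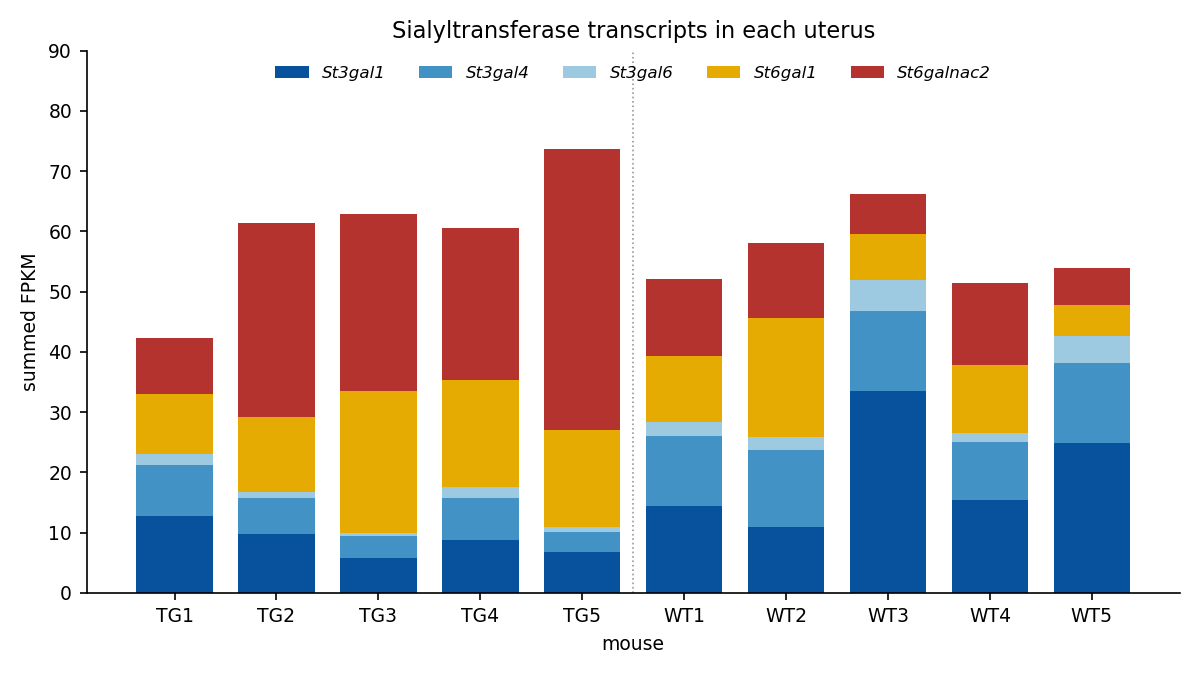
Summed FPKM of the 5 sialyltransferase members in each mouse, with the 3 St3gal genes in blue, St6gal1 in yellow and St6galnac2 in red. St6galnac2 makes up 41.6% or more of the bar in TG2 to TG5 and at most 26.5% in WT, and WT3 and WT5 have the largest St3gal parts.

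The WT mice differed among themselves in the same genes. WT3 and WT5 had the lowest Cmah, Neu1, St6galnac2 and St6gal1 and the highest St3gal1 and St3gal6 of the 5 WT uteri. The SD of log2 CPM over the WT mice was 0.65 for St3gal1, 0.72 for St6gal1, 0.55 for St6galnac2 and 0.45 for Neu1, while genes of like mean level had medians of 0.22 to 0.23. For St3gal4 it was 0.20, below the 0.29 of genes of like level. In HSD17B1TG the SD was 0.88 for St6galnac2 and 0.58 for St3gal4, against 0.28 and 0.35. The cycle phase of each WT mouse was not given in the sources used here.

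Epithelial and stromal marker levels were set beside these genes. The summed FPKM of 12 epithelial markers was 929, 2833, 2948, 2346 and 4004 in TG1 to TG5 and 1189, 856, 678, 1893 and 521 in WT1 to WT5. It was lowest in WT5 and WT3, and TG1 lay within the WT range. Of the 12, 11 had positive log2 fold changes (Foxa2 had -0.23) and 1, Prom1, was called higher. The sum of 10 stromal markers was 596 to 2301 in HSD17B1TG, with TG1 highest, and 1966 to 2413 in WT, where WT3 (2315) and WT4 (2317) were alike. Of those markers, 4 (Col3a1, Pdgfra, Hand2 and Thy1) were called lower. The stromal markers did not all differ alike, as 1, Lum, had a positive log2 fold change (0.51, means of 267 and 187 FPKM) and Dcn had -0.10. In bulk tissue, fewer cells of a type and less RNA per cell cannot be told apart.

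The members' differences depended on the marker sum against which they were set. Division by a marker sum shifts the mean log2 ratio of every gene by the same amount. The sign and size of these ratios therefore follow in part from the sum itself. Relative to the epithelial sum, Cmah stood at 0.947 to 2.77 FPKM per 1000 epithelial marker FPKM in HSD17B1TG and at 0.110 to 0.479 in WT, still without overlap. St6galnac2 stood at 10.7 ± 0.78 and 10.8 ± 2.66 (SD, n = 5) on this scale, and Neu1 at 14.98 ± 4.41 and 17.9 ± 5.92. On the same scale the differences of the St3gal genes and Gne were larger than in the levels themselves, with mean log2 ratios of -2.53 for St3gal4, -2.46 for St3gal1, -2.75 for St3gal6 and -1.81 for Gne, but the groups overlapped for all 4, also for St3gal4 (0.824 to 9.04 and 5.13 to 25.6), in which TG1 lay above WT4. Set against the stromal sum, St3gal4 stood at 4.70 ± 0.88 and 5.55 ± 0.84 per 1000, with ranges that overlapped, and St3gal1 at 7.58 ± 2.43 and 8.82 ± 3.62, while the mean log2 ratio was 2.30 for St6galnac2, 2.05 for Neu1 and 5.35 for Cmah. The mean log2 ratio to the epithelial sum was negative for Nans (-1.04), Cmas (-0.74) and St6gal1 (-0.73), whose levels were higher in HSD17B1TG on average, and that of Gne to the stromal sum was positive (0.46). Elf3, an epithelial transcription factor in the marker list, itself had a log2 fold change of 2.37 ± 0.76 (edgeR adjusted p = 0.0804). With Elf3 left out of the sum, Cmah stood at 2.22 ± 0.80 and 0.247 ± 0.15, St6galnac2 at 13.4 ± 1.04 and 11.6 ± 2.49, and Neu1 at 18.9 ± 6.52 and 19.1 ± 5.66. These ratios were added after the levels had been seen and carry no test, and the part of tissue make-up in the differences was not tested.

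**Figure D4:**
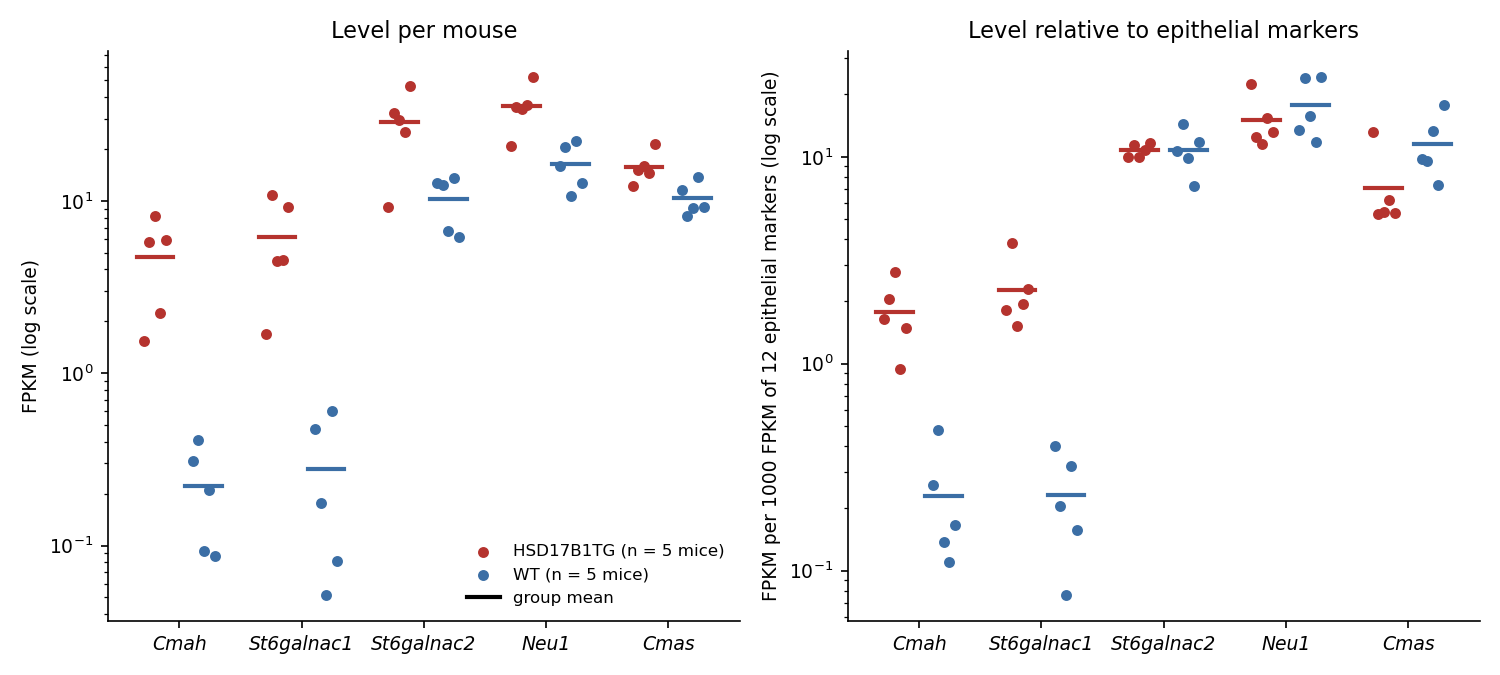
FPKM per mouse (left) and FPKM per 1000 summed FPKM of 12 epithelial markers (right) for 5 genes, both on log axes, with HSD17B1TG in red, WT in blue and group means as bars. Cmah and St6galnac1 keep the groups apart on both scales, while St6galnac2, with means of 10.7 and 10.8 on the right, and Neu1 overlap there.

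Markers of other cell types varied beside the members. All 10 smooth muscle markers had a positive log2 fold change, with sums of 879 to 7427 FPKM in HSD17B1TG and 425 to 5831 in WT, and none was called. Leucocyte sums were 83.5 to 109 and 66.5 to 142 FPKM, macrophage sums 172 to 294 and 150 to 224, B and plasma cell sums 47.4 to 185 and 26.1 to 265, and endothelial sums 42.3 to 165 and 86.1 to 179. Of the 10 leucocyte markers, 9 had negative log2 fold changes (median -0.50) and 1, Laptm5, was called higher, with means of 39.6 and 16.2 FPKM. Among the 8 macrophage markers 1 was called higher and 1 lower, and none of the endothelial, neutrophil or B and plasma cell markers tested was called. Neutrophil sums were 2.57 to 11.4 and 0.476 to 3.43 FPKM and eosinophil sums at most 0.73 in any mouse. The sum of 8 natural killer and cytotoxic markers was 2.55 to 12.01 in HSD17B1TG and 12.5 to 116 in WT, without overlap, and 5 of the 8 were called lower. Their part in the members' levels was not tested.

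Beyond the members, a wider list of 69 genes of the pathway was examined, of which 67 were listed in the table and 56 passed the low count filter. By the same thresholds, 2 of the 56 rose (St6galnac1 and Fut9) and 2 fell (Gfpt2 and B4galt6), beside 2.16% and 2.08% of all genes. With adjusted p under 0.05 alone, 6 were higher, the others being Ctsa, Siglech, Nagk and B4galt3, and 3 were lower, the other being St8sia4, beside 3.34% and 2.81% of all genes at that threshold. When 1 mouse was left out, the adjusted p reached 0.122 for Nagk (log2 fold change 0.47) and 0.1095 for B4galt3 (0.74), and over the 8 alternative fits it reached 0.166 and 0.0681. The log2 fold change was positive for 30 and negative for 26, with a median of 0.10 beside 0.00 for all genes tested. The FPKM ranges did not overlap for 5 genes that were higher in HSD17B1TG and for 2 that were lower, while 4.04% and 2.65% of all genes had such ranges.

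St6galnac1, which adds sialic acid to the first N-acetylgalactosamine of O-glycans and makes the sialyl-Tn antigen, had 1.68, 10.9, 4.47, 4.54 and 9.16 FPKM in TG1 to TG5 and 0.476, 0.176, 0.0518, 0.607 and 0.0816 in WT1 to WT5. Every transgenic uterus was above every WT uterus. It rose with a log2 fold change of 4.43 ± 0.73 (SE, edgeR adjusted p = 0.0177), much like Cmah in size, and its WT mean of 0.279 FPKM was close to that of Cmah. St6galnac1 had 1316 reads over all 10 mice together, so the size of its fold change is less certain than its direction. It was not called without TG5 or WT2, with an adjusted p of up to 0.0546 and a log2 fold change between 4.12 and 4.90 over the fits that left out 1 mouse. Relative to the epithelial sum it stood at 1.52 to 3.83 per 1000 in HSD17B1TG and 0.0765 to 0.401 in WT, without overlap. Of the remaining 5 alpha-2,6 enzymes of the list none was called and 4 had negative log2 fold changes, and St6galnac6, the highest of them by mean level, had 6.19 ± 3.76 and 10.1 ± 1.61 FPKM (adjusted p = 0.256).

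St6galnac1 and St6galnac2 lie on chromosome 11 on the same strand, 70.2 kb apart. The 2 genes listed between them, Gm11735 and BC018473, were looked at after these values had been seen. BC018473, annotated as antisense, had 0.373, 1.84, 0.544, 0.759 and 2.10 FPKM in TG1 to TG5 and 0.104, 0.0385, 0, 0.124 and 0 in WT1 to WT5, so it also lay above WT in every transgenic uterus. Its log2 fold change was 4.33 ± 0.92 (edgeR adjusted p = 0.0306), and the call was lost without TG2, TG4, TG5, WT1, WT2, WT3 or WT5, with an adjusted p of up to 0.0785. Gm11735, an annotated pseudogene, did not pass the low count filter, with means of 0.338 and 0.00510 FPKM.

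Fut9, a fucosyltransferase that builds Lewis x on the same chain ends, rose with a log2 fold change of 2.03 ± 0.52 (adjusted p = 0.0461), from 3.28 ± 1.49 to 13.4 ± 8.03 FPKM, and TG1 lay within the WT range. Fut2, the highest of the fucosylation genes by mean level, had 37.1 ± 16.8 and 14.95 ± 15.8 FPKM (log2 fold change 1.31 ± 0.61, adjusted p = 0.204). WT4, at 42.7 FPKM, was far above the 4.58 to 13.2 of the other WT mice, and without it the log2 fold change was 2.21 with an adjusted p of 0.0147, past the call thresholds. Gfpt2, a form of the enzyme that commits glucose to amino sugars, fell by 2.16 on the log2 scale (SE 0.53, adjusted p = 0.0427), with 0.399 to 1.66 FPKM in HSD17B1TG and 2.22 to 7.82 in WT. Gfpt1, the more abundant form, had 19.2 ± 7.24 and 14.98 ± 4.37 FPKM (adjusted p = 0.461). B4galt6, which adds galactose to glycolipids, fell by 1.05 (SE 0.25, adjusted p = 0.0400), with 2.70 to 5.51 and 6.14 to 12.4 FPKM. Each of these 3 calls was lost in at least 7 of the 10 fits that left out 1 mouse. Gfpt2 and Fut9 lost it without TG2, TG4, TG5, WT1, WT2, WT3 or WT5, with adjusted p up to 0.0920 and 0.109, and B4galt6 also without TG3, with adjusted p up to 0.0921. Of the 8 alternative fits, Fut9 was called in 4 and each of the other 2 in 7. Relative to the epithelial sum the groups overlapped for all 3, with mean log2 ratios of 0.58 for Fut9, -3.58 for Gfpt2 and -2.40 for B4galt6. Relative to the stromal sum they overlapped as well, with 2.86, -1.30 and -0.12 in the same order.

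Ctsa, the protective protein that Neu1 needs for its activity in the lysosome, had 48.2, 71.6, 53.5, 71.3 and 96.9 FPKM in TG1 to TG5 and 33.1, 30.7, 38.0, 39.0 and 39.8 in WT1 to WT5. The groups did not overlap, and the log2 fold change of 0.92 ± 0.20 (edgeR adjusted p = 0.0306) passed the test but not the limit of 2-fold. Over the fits that left out 1 mouse its adjusted p was 0.0155 to 0.0801, and without TG1 (log2 fold change 1.02, adjusted p = 0.0155) it was called. Ctsa shares 495 exon bases with Pltp and 324 with Neurl2, both on the other strand. Glb1, the galactosidase of the same complex, had a log2 fold change of 0.40 ± 0.20 (adjusted p = 0.248).

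The other roles held no called gene. The 3 genes listed as possible electron donors of the hydroxylase all had negative log2 fold changes. Cyb5b, the highest of them by mean level, had 54.6 ± 23.8 and 69.5 ± 26.0 FPKM (adjusted p = 0.506), and Cyb5a had 49.4 ± 13.5 and 54.5 ± 8.49 FPKM. Slc35a1, which carries CMP-sialic acid into the Golgi, had 19.0 ± 1.79 and 18.8 ± 2.31 FPKM (log2 fold change 0.01 ± 0.12, adjusted p = 0.981). St3gal2, the highest of the other alpha-2,3 enzymes by mean level, had 8.22 ± 4.96 and 10.99 ± 1.54 FPKM (adjusted p = 0.460), and St3gal5 had a positive log2 fold change of 0.61 (adjusted p = 0.494). Casd1, which O-acetylates sialic acid, had 17.7 ± 3.18 and 14.6 ± 0.57 FPKM without overlap (adjusted p = 0.204).

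All 3 tested alpha-2,8 sialyltransferases were low and had negative log2 fold changes, and St8sia4, which makes polysialic acid, had 0.216 ± 0.11 and 0.700 ± 0.36 FPKM (log2 fold change -1.70 ± 0.43, adjusted p = 0.0445), under the level of 1 FPKM needed for a call. Its adjusted p reached 0.104 when 1 mouse was left out. Ncam1, the main carrier of polysialic acid, had 5.05 ± 1.39 and 3.77 ± 2.68 FPKM (adjusted p = 0.597). Among the sialic acid readers, Siglec1, a macrophage receptor, had 1.96 ± 1.14 and 1.33 ± 0.63 FPKM (adjusted p = 0.466). Siglech, a receptor of plasmacytoid dendritic cells named here after its values were seen, had 0.424 to 0.872 FPKM in HSD17B1TG and 0.0934 to 0.313 in WT, without overlap (log2 fold change 1.78 ± 0.39, adjusted p = 0.0322), also under 1 FPKM. Its adjusted p was 0.0248 to 0.0779 when 1 mouse was left out. B4galt1, the highest of the 14 genes that build the acceptor chains, had 39.0 ± 5.23 and 41.6 ± 6.37 FPKM (adjusted p = 0.724).

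The 5 protein-coding genes whose profile over the 10 mice was closest to that of Cmah were Ntn5, Pld2, 1700010I14Rik, AI467606 and Ptpru, among 12337 genes with mean FPKM over 1. The measure was the root mean square difference between standardised log2 CPM profiles, which was 0.21 for Ntn5 and 0.28 for Ptpru. All 5 had every HSD17B1TG mouse above every WT mouse, which a profile like that of Cmah requires. Ntn5, a netrin-family gene, had 1.72, 8.66, 11.6, 4.42 and 9.51 FPKM in TG1 to TG5 and 0.165, 0.261, 0, 0.524 and 0 in WT1 to WT5, and shares 519 exon bases with Sec1 on the other strand. Ptpru, a receptor tyrosine phosphatase, had 18.4 to 48.0 and 3.03 to 10.9 FPKM, and Pld2, a phospholipase D, 8.06 to 11.04 and 3.84 to 5.87. Of the members, Neu1 (0.42) and St6galnac2 (0.45) were closest to Cmah and St3gal4 (1.86) was farthest. When profiles were centred within each group, the 5 genes ranked between 209 and 836, and none of them was among the 5 closest.

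**Figure D5:**
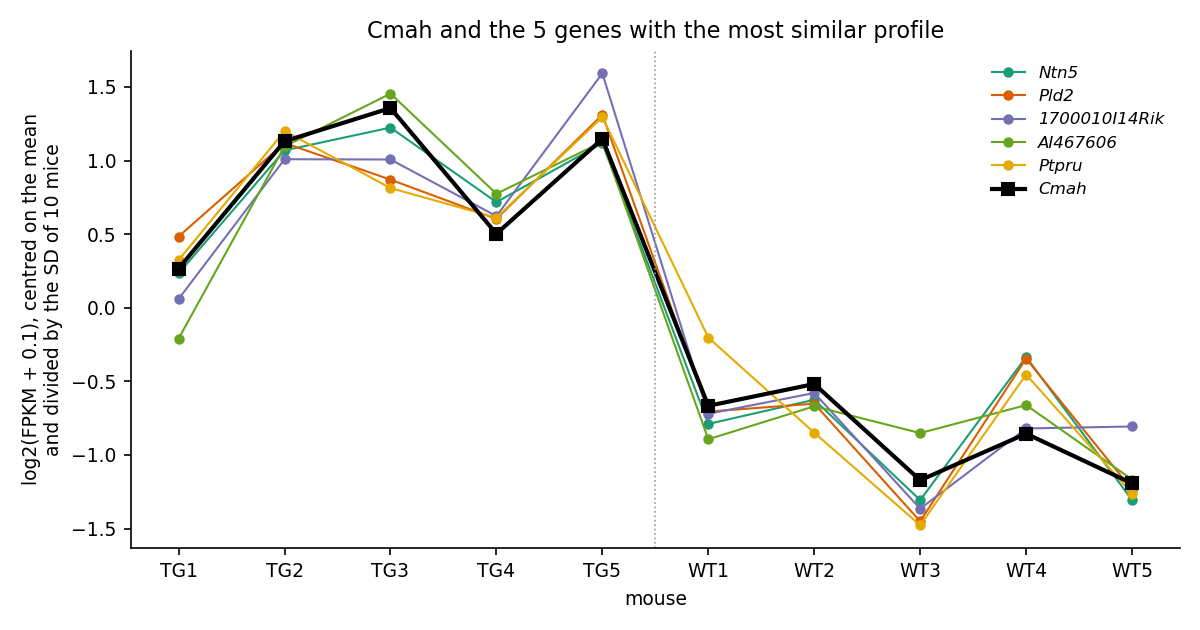
Profiles of Cmah (black) and its 5 closest genes over the 10 mice, as log2(FPKM + 0.1) centred on the mean and divided by the SD of the 10 mice. All 6 lines are higher in TG1 to TG5 than in WT1 to WT5, and TG1 is the lowest transgenic uterus for each.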

How the data were processed

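RNA was sequenced from 10 uteri, with 1 library per mouse. The authors aligned paired-end NovaSeq reads with HISAT2 (version 2.0.5 in the submitters' processing notes) and tested differences with DESeq2. The counting program and strand setting were not given in the sources used here. The deposited table holds raw read counts per gene and the authors' FPKM values (fragments per kilobase of gene, scaled to the library's mapped fragments) for each mouse. Its columns of the authors' group means, fold changes and p-values, and the other files (the called gene lists), were not used. Coordinates are those of the table (GRCm38), and 28447 of 29268 entries had the same coordinates in GENCODE M21, from which overlaps were taken.

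Counts were tested with edgeR 4.0.16 (R 4.3.3; filterByExpr, TMM, quasi-likelihood test, Benjamini-Hochberg over all genes tested), HSD17B1TG against WT, with no covariate. A gene was called with adjusted p under 0.05, fold change over 2 and mean FPKM over 1 in either group. These thresholds are those of the study. The fit was tested on simulated data. Each of 8 alternatives (DESeq2 1.42.0, limma 3.58.1 as voom or on log2(FPKM + 1) and log2(FPKM + 0.1), RLE factors, library totals, no low count filter, CPM over 1 in 5 mice) and each of 10 fits without 1 mouse was run. In the library with the lowest total, 3 counts equal 0.2025 CPM, which is a limit of counting error only. No pair of libraries of the same group agreed within sampling noise. P-values measure the spread between these mice.

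The members and lists were chosen with earlier results of these data known. Named genes were all members, the wider-list genes called, in each role the gene with the largest mean FPKM, the 5 genes most like Cmah by profile, and those said to be chosen after their values were seen. The wider-list genes with adjusted p under 0.05 alone, St3gal5, Cyb5a, Glb1, the marker genes and the genes that overlap a member are named as context.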

Additional observations from a re-analysis of the deposited data

How the results depend on the processing

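All log2 fold changes of the members kept their direction in the 8 alternative fits and the 10 fits that left out 1 mouse. The number of members called higher was 3, also with DESeq2 and by adjusted p alone, 1 with library totals, 2 in the other 6 alternative fits, and 1 to 4 when 1 mouse was left out. The number called lower was 1, 3 with DESeq2, 2 with library totals, and 0 to 2 when 1 mouse was left out.

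Of the other pathway genes, 2 were called higher, 1 without the low count filter, 1 with limma voom, 1 on log2(FPKM + 0.1) and 6 by adjusted p alone, and 0 to 4 without 1 mouse. The 2 called lower became 1 with limma voom, 1 on log2(FPKM + 1), and 0 to 4 without 1 mouse. Over all genes, 367 were called higher, 906 with DESeq2, 568 by adjusted p alone, and 38 to 888 without 1 mouse. The 354 called lower became 666 with DESeq2, 189 with limma voom, 228 on log2(FPKM + 1), and 27 to 666 without 1 mouse. Over all genes the fewest were called higher without TG5 or WT2 and lower without TG5, and the most in either direction without WT4, and the cause was not tested.

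The log2 fold change of Slc35a1, near 0, was -0.18 with library totals, -0.032 without the low count filter, -0.015 with CPM over 1 in 5 mice, and -0.082 to 0.046 without 1 mouse. Relative to epithelial markers, a scale chosen after seeing the data, Neu1 had a mean log2 ratio of -0.23, and -0.022 with Elf3 left out. On log2(FPKM + 1) the difference for Cmah was 2.08. Of the 5 genes closest to Cmah, 2 remained on log2(FPKM + 1) and 0 when profiles were centred within groups. No paired analysis was possible because the labels give no replicate numbers. Cmah in WT rested on 16 to 83 reads a mouse, so the size of its fold change is less certain than its direction.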
